A study of Mus musculus with 107 samples.

Results

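The genes described here encode the subunits of oxidative phosphorylation. They were taken by name from a table of 50686 mouse genes, as all genes named for a subunit of respiratory complexes I to V (Nduf, Sdh, Uqcr, Cox and Atp5 families and the protein-coding genes of the mitochondrial genome) with a mean of at least 1 TPM over all tumors. TPM is a measure of transcript abundance corrected for gene length, with a fixed total per tumor. Of 101 genes with such a name, 93 reached the minimum, 80 of them encoded in the nucleus and 13 in the mitochondrial genome. The nuclear members comprise 35 genes of complex I, 4 of complex II, 8 of complex III, 16 of complex IV and 15 of complex V. Another 2, Atp5s and Atp5sl, carry the name only. Ndufa4 and Ndufa4l2 were counted with complex IV, to which Ndufa4 belongs in spite of its name. The mitochondrial members comprise 7 genes of complex I, 1 of complex III, 3 of complex IV and 2 of complex V. The 8 genes below the minimum were 6 pseudogenes and the testis-type isoforms Cox7b2 and Cox8c. The names taken leave out Cox4i1, Cox4i2 and Cyc1, which are also subunits.

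Complexes I to IV pass electrons from NADH and succinate to oxygen and pump protons across the inner mitochondrial membrane, and complex V uses the proton gradient to make ATP. Complex II is encoded entirely in the nucleus, whereas the others are assembled from subunits made from both genomes. Transcripts of the mitochondrial genome are cut from long precursors that run around each strand, and mt-Nd6 is the only protein-coding gene read from the light strand promoter.

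The tumors grew under the skin of mice from 12 transplanted mouse cancer cell lines, implanted at 7 weeks of age, and each model is 1 line. BNL 1ME A.7R.1, RAG, 4T1, CT26.WT, EMT6 and Renca were grown in BALB/cAnNCrlCrlj mice, MC38 and B16-F10 in C57BL/6NCrl, LL/2 in C57BL/6JCrl, MBT2 in C3H/HeNCrl, KLN205 in DBA/2NCrl and Hepa 1-6 in C57L/J. The hepatocellular carcinoma lines BNL 1ME A.7R.1 and Hepa 1-6 and the renal lines Renca and RAG, the last adapted by growth in mice, were set beside lung (LL/2, KLN205), colorectal (CT26.WT, MC38), breast (4T1, EMT6), bladder (MBT2) and melanoma (B16-F10) lines. There were 35 treatment-naïve tumors of about 100 mm3, 36 nontreated tumors collected on day 8 (NT) and 36 tumors collected on day 8 after daily oral lenvatinib at 10 mg/kg for 7 days (LEN), with 3 tumors in every group except treatment-naïve MC38, which had 2. Lenvatinib inhibits the receptor tyrosine kinases of the VEGF and FGF families. BNL 1ME A.7R.1 and Hepa 1-6 were grown in male mice and the other models in female mice. Strain, sex, tissue and line vary together across the models and cannot be told apart. Every tumor came from another mouse. The comparisons ask how far the subunits of both genomes differ between models, after LEN and between the naïve and day 8 tumors.

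Markers of the labelled tissue were present for B16-F10 (7 of 7 melanoma markers at 1 TPM or more in the naïve tumors), Hepa 1-6 (7 of 7 hepatocyte markers) and KLN205 (6 of 6 squamous markers). They were partly present in 4T1 (5 of 7 mammary markers), EMT6 (4 of 7), Renca and RAG (4 of 7 kidney markers each). Most were absent from CT26.WT (2 of 6 colon markers), BNL 1ME A.7R.1 (1 of 7 hepatocyte markers), MC38 (1 of 6), MBT2 (1 of 6 urothelial markers) and LL/2 (0 of 4 lung markers). The depth of the libraries is unknown, since TPM keeps no counts. The share of TPM from nuclear protein-coding genes was 27.2% at the lowest and 64.5% at the highest. A single library stood apart, that of LEN tumor 4 of 4T1, which had the lowest of these shares, the lowest nuclear sum and the lowest mitochondrial sum of all tumors. Results that rest on it are given with and without it. In these bulk samples fewer cells of a type and less RNA per cell cannot be told apart.

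Nuclear subunits were most abundant in B16-F10 and least abundant in 4T1. The summed TPM of the 80 nuclear members was 16082 ± 1179 (SD, n = 3) in treatment-naïve B16-F10 and 5429 ± 68.1 in 4T1, a 2.96-fold range over the models. Between them lay EMT6 at 6596 ± 354, KLN205 at 6786 ± 200, LL/2 at 7858 ± 118, BNL 1ME A.7R.1 at 8303 ± 641, CT26.WT at 8718 ± 517 and Hepa 1-6 at 8953 ± 482. RAG (9396 ± 1434), Renca (9514 ± 473), MBT2 (9552 ± 318) and MC38 (9983 ± 1824, n = 2) followed, and neighbors in this order from BNL 1ME A.7R.1 to MC38 did not differ by more than their spread. B16-F10 at the top and 4T1 at the bottom stood clear of their neighbors. The share of TPM in nuclear protein-coding genes was low at the lower end of this order, with 36.4% in 4T1, 38.0% in KLN205 and 42.5% in EMT6. It did not follow the order elsewhere, with 40.8% in RAG, 54.6% in Hepa 1-6, 55.0% in MBT2 and 54.6% in B16-F10. Per 1000 TPM of these genes the nuclear members had 29.4 ± 0.970 TPM in B16-F10, 23.0 ± 1.04 in RAG, 15.5 ± 0.525 in EMT6 and 14.9 ± 0.262 in 4T1, a 1.97-fold range in which B16-F10 stood clear and 4T1 lay close to EMT6.

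The order of the mitochondrial members was another one. Their sum was highest in Renca at 42646 ± 3216, followed by B16-F10 at 41077 ± 926 and MBT2 at 37615 ± 4340, and lowest in MC38 at 16902 ± 9370 (n = 2) and EMT6 at 21758 ± 4313. MC38 was lowest for 13 of 13 mitochondrial members, but its pair of naïve tumors lay far apart. Renca was highest for 9 of 13. The ratio of the mitochondrial to the nuclear sum ran from 1.63 in MC38 to 4.67 in KLN205, with 4T1 at 4.57 and Renca at 4.49, so that the 4T1 tumors, lowest in nuclear subunits, had one of the highest ratios. In 4T1 it was set by 1 naïve tumor at 6.22, and the lowest of the 3 had 3.68. On the log2 scale the SD between naïve models was 0.39 for the nuclear sum against 0.12 within groups of the same model, and 0.42 against 0.30 for the mitochondrial sum. Without LEN tumor 4 of 4T1 the SD within groups was 0.10 and 0.23. The models spread more widely than the tumors of 1 group in both sums, and the margin was smaller for the mitochondrial members.

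**Figure D1:**
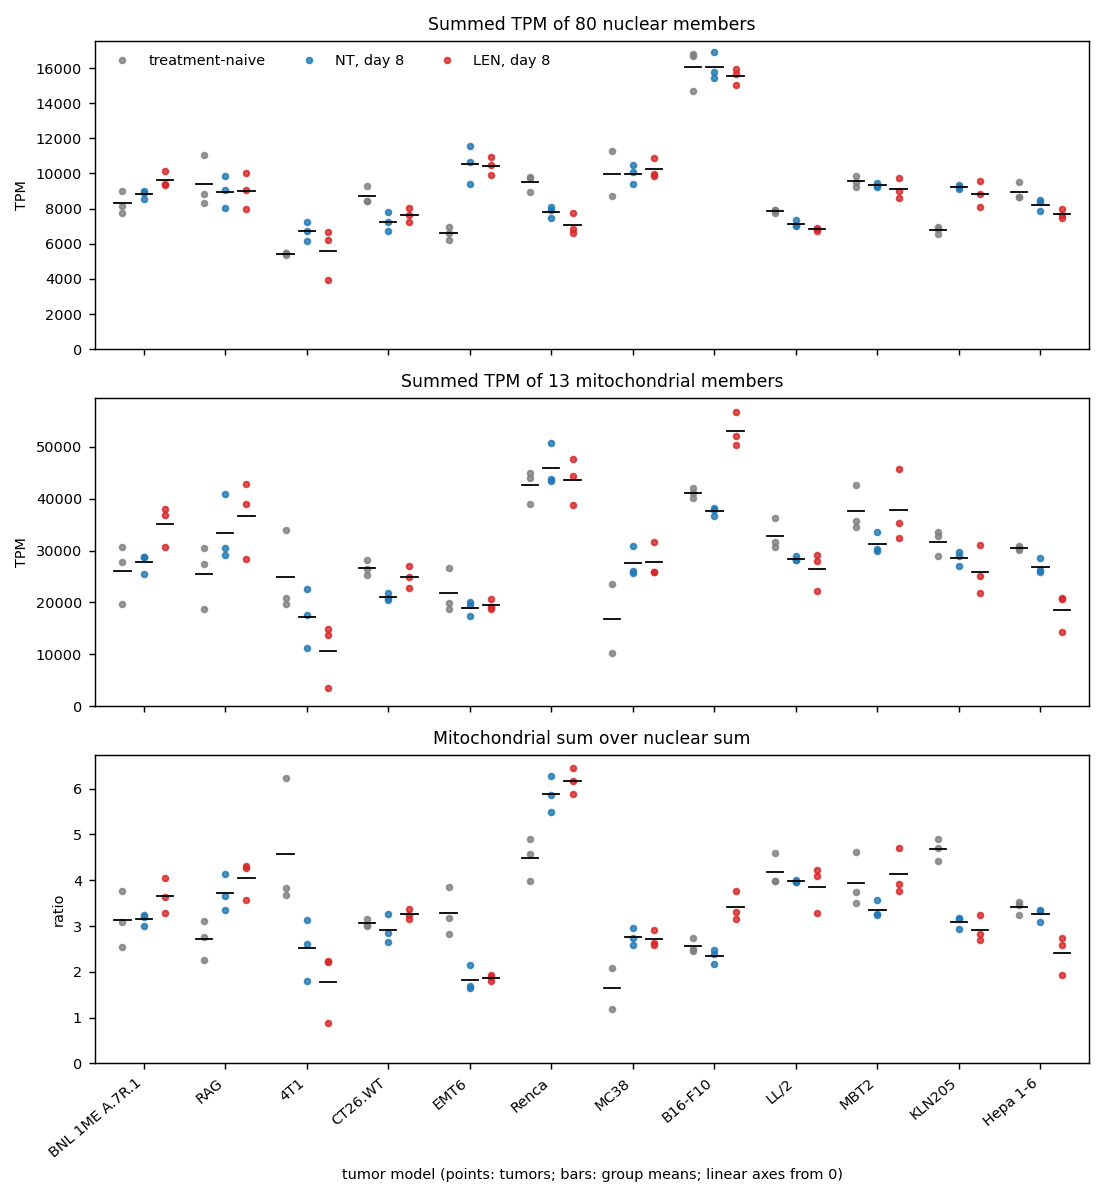
Summed TPM of the 80 nuclear members, of the 13 mitochondrial members, and the ratio of the latter to the former, for each tumor by model and group, on linear axes; points are tumors (gray, treatment-naïve; blue, NT; red, LEN) and bars are group means. B16-F10 lies above the other models in the nuclear sum (16082 TPM on average in naïve tumors), and LEN tumor 4 of 4T1 lies lowest in all 3 plots.

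Each of the 93 members differed between the 12 treatment-naïve models by limma's F test on log2(TPM + 1) with Benjamini-Hochberg adjustment over all genes (highest adjusted p 0.0321). This was close to the background, as 93.6% of 17542 genes did so. The sums also moved with the make-up of the library. Over all tumors, after removing group means, the nuclear sum had r = 0.892 with the summed TPM of nuclear protein-coding genes and the mitochondrial sum r = 0.793, and the nuclear with the mitochondrial sum r = 0.779. These are descriptions across tumors that share models, libraries and a fixed total. The mitochondrial sum had r = 0.827 with that of the mitochondrial ribosomal RNAs, which are cut from the same precursor. Without LEN tumor 4 of 4T1 these values were 0.829, 0.635, 0.644 and 0.714 in the same order. Among the nuclear members, the median correlation of a gene with the summed TPM of the others was 0.753 over all tumors and 0.717 within groups. It was at least 0.5 for 70 of 80 genes. The lowest values belonged to Atp5sl (-0.04), Ndufa4l2 (-0.01), Cox6b2 (0.02), Cox7a2l (0.05) and Cox8b (0.13).

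The lead of B16-F10 ran through all complexes. Of the 80 nuclear members 58 (72.5%) had their highest naïve model mean in B16-F10, where 16% of 17542 genes did. The median member stood 1.84-fold over the median of the other 11 models, against 1.06-fold for all genes. The folds of the summed nuclear subunits were larger for complex II (2.56-fold) and complex III (2.30-fold) than for complex IV (1.94-fold), complex I (1.78-fold) and complex V (1.70-fold). The place of complex II rests largely on 1 gene. Of its 641 TPM in naïve B16-F10, Sdhb gave 314, against 97.8 for Sdha, 99.3 for Sdhc and 130 for Sdhd. For the mitochondrial members the median was 1.39-fold, and 2 of 13 were highest in B16-F10. The gene furthest from the other models was Sdhb, the iron-sulfur subunit of succinate dehydrogenase, with 289, 319 and 334 TPM in the 3 naïve B16-F10 tumors. The median of the other models was 55.4 TPM and the highest of them 115 TPM, so that the fold was 5.67. Ndufa4 (631 against 165 TPM, 3.83-fold), the complex IV subunit Cox5b (744 against 210 TPM, 3.55-fold), the complex I subunit Ndufa5 (193 against 55.2 TPM), Cox7b (383 against 111 TPM) and Ndufv3 (230 against 71.9 TPM) came next. Ppargc1a, the coactivator PGC-1α that drives mitochondrial biogenesis and is known to be high in some melanomas, had 91.6, 95.5 and 117 TPM in the same tumors. No tumor of another model had more than 8.89 TPM of it in any group. Its part in the higher subunit levels was not tested.

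**Figure D2:**
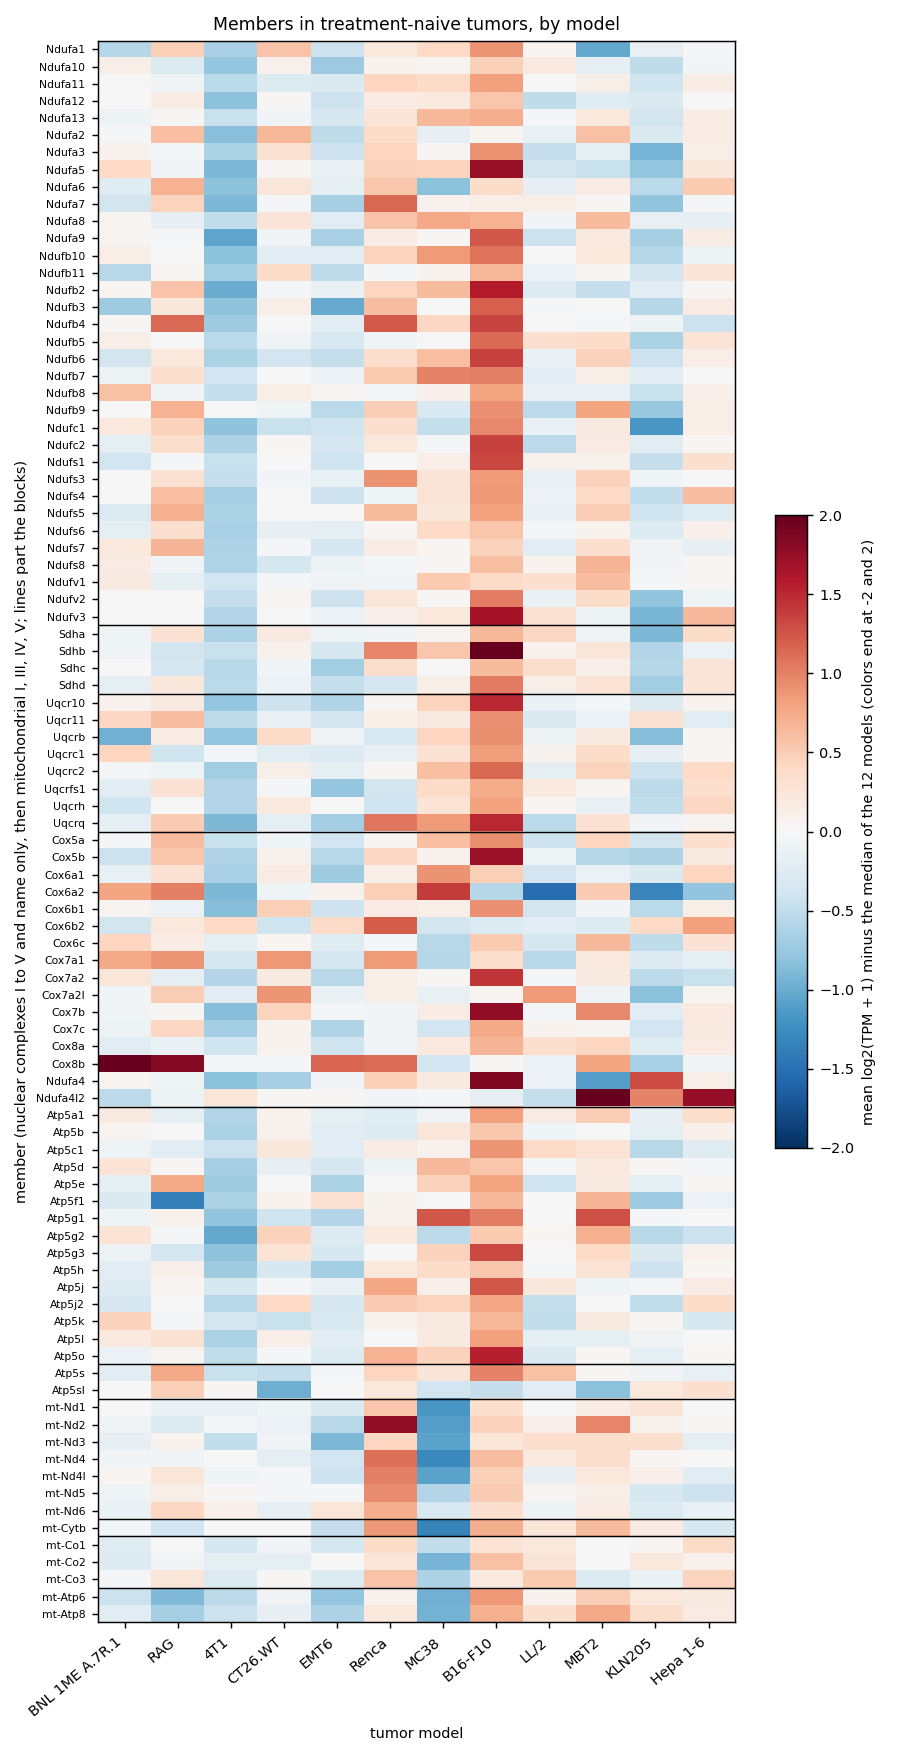
Treatment-naïve level of 92 of the 93 members (rows, by genome and complex) in the 12 models (columns), drawn as the mean of log2(TPM + 1) minus the median of the models, with colors that end at -2 and 2. Over all members, B16-F10 is highest for 58 of the 80 nuclear ones, where 16% of all genes are, and MC38 is lowest for all 13 mitochondrial members. 4T1 is lowest for 47 nuclear members, but its naïve tumors also have the lowest share of TPM in nuclear protein-coding genes (36.4%). The matching shares of all genes lowest in 4T1 or MC38 are not given.

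Among the nuclear members that vary most between naïve models, on the log2(TPM + 1) scale of model means, Ndufa4l2 spanned 4.50, Cox8b 3.90, Sdhb 3.0, Ndufa4 2.98, Cox6a2 2.94 and Ndufa5 2.64. Ndufa4l2, a relative of Ndufa4 that is known to be induced in hypoxia, had 100, 103 and 108 TPM in naïve MBT2 and a mean of 3.64 TPM in BNL 1ME A.7R.1. At the other end, the most abundant members per complex over all tumors were Ndufb9 (170 TPM), Sdhb (77.6 TPM), Uqcrq (212 TPM), Cox8a (271 TPM) and the catalytic beta subunit Atp5b (712 TPM). The least abundant were Ndufa11 (11.7 TPM), Sdhd (65.3 TPM), Uqcrfs1 (47.3 TPM), Cox6b2 (1.23 TPM) and Atp5j (111 TPM). The mitochondrial members ranged from 1026 TPM for mt-Nd6 to 7077 TPM for mt-Atp8, all above every nuclear member.

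Promoters of the members that led in B16-F10 or that changed most after LEN are printed to show how differently they are built. RefSeq promoter windows of 300 bases (GRCm38.p6), running from upstream of the start to just inside the transcript, matched 65 of the 80 nuclear members, with 70 windows. Capitals mark matches to the searched letters. Sdhb holds a match to the NRF1 motif on the minus strand at position -54 from the start and an ETS match at position 7. The windows of Ndufa4, Ndufv3 and Cox8b hold no match. Sdhb and Ndufv3 lie on the plus strand at chr4:140961021-140961320 and chr17:31519865-31520164, and Ndufa4 and Cox8b on the minus strand at chr6:11907401-11907700 and chr7:140900397-140900696. All 4 are given 5′ to 3′ on the strand of the gene.
Sdhb: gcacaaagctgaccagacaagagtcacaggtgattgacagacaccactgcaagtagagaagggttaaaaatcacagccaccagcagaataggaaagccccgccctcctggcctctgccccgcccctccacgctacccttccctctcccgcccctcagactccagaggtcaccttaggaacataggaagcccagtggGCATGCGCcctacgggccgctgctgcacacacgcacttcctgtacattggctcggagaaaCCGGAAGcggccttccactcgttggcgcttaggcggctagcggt
Ndufv3: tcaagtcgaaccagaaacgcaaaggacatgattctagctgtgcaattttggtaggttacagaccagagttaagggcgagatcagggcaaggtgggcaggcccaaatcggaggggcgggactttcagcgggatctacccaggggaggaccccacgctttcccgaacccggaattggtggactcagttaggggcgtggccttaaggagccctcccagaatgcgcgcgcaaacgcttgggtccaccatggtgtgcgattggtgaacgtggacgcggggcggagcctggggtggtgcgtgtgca
Ndufa4: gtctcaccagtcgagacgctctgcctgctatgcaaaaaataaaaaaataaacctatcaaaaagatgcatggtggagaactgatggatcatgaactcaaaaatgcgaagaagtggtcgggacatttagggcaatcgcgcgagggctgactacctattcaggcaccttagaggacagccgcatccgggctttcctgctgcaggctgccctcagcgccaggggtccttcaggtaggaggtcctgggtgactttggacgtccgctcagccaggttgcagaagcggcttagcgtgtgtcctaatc
Cox8b: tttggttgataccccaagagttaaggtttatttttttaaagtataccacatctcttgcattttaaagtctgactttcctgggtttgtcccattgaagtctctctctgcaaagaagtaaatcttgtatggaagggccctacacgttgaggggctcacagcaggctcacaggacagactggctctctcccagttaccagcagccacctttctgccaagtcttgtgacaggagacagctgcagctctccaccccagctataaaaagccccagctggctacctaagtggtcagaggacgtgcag
The motifs were searched on both strands. The ETS motif ends in AAG, with which the YY1 and ERR motifs begin, so that matches can overlap. NRF1 and ETS factors such as GABPA are known regulators of respiratory genes. The NRF1 motif (GCGCANGC) was found in 24 of the 70 member windows (34.3%), against 9.95% of all 32851 windows. The ETS motif (CCGGAAG) was in 16 (22.9% against 8.86%), the YY1 motif (AAGATGGC) in 9 (12.9% against 2.75%) and the ERR motif (AAGGTCA) in 8 (11.4% against 4.72%). At least 1 of the 4 was found for 39 of 65 members and none for 26. A match gives letters only and does not show binding.

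After LEN, most nuclear members stayed close to their NT level. The members called in every fit that left out 1 model were Ndufa4, Ndufs8, Atp5a1, Atp5k and Uqcr10, which fell, and Cox6a2, Ndufv3 and mt-Nd6, which rose. The median of the 80 nuclear log2 changes, averaged over models, was -0.03, with 61 below 0, and that of the 13 mitochondrial members was -0.09 against -0.00 for all genes. The mitochondrial median was -0.03 without LEN tumor 4 of 4T1 and 0.01 without the 4T1 model, so that its sign rests on that model. By limma on log2(TPM + 1), in 1 fit of all 72 day 8 tumors with the mean of the 12 within-model differences as contrast, 11 nuclear members (13.8%) fell and 6 (7.5%) rose at an adjusted p under 0.05. The background was 9.87% of 17351 genes lower and 13.7% higher. No mitochondrial member fell and 1 of 13 rose. At an unadjusted p under 0.05 there were 29 nuclear members (36.3%) and 1 mitochondrial member (7.69%), against 33.8% of all genes tested. By complex, 4 of 35 nuclear genes of complex I fell and 2 rose, 1 of 4 in complex II fell, 2 of 8 in complex III fell, 1 of 16 in complex IV fell and 4 rose, and 3 of 15 in complex V fell. After rescaling the libraries over nuclear protein-coding genes 30 nuclear members fell, where 15.8% of all genes tested did.

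**Figure D3:**
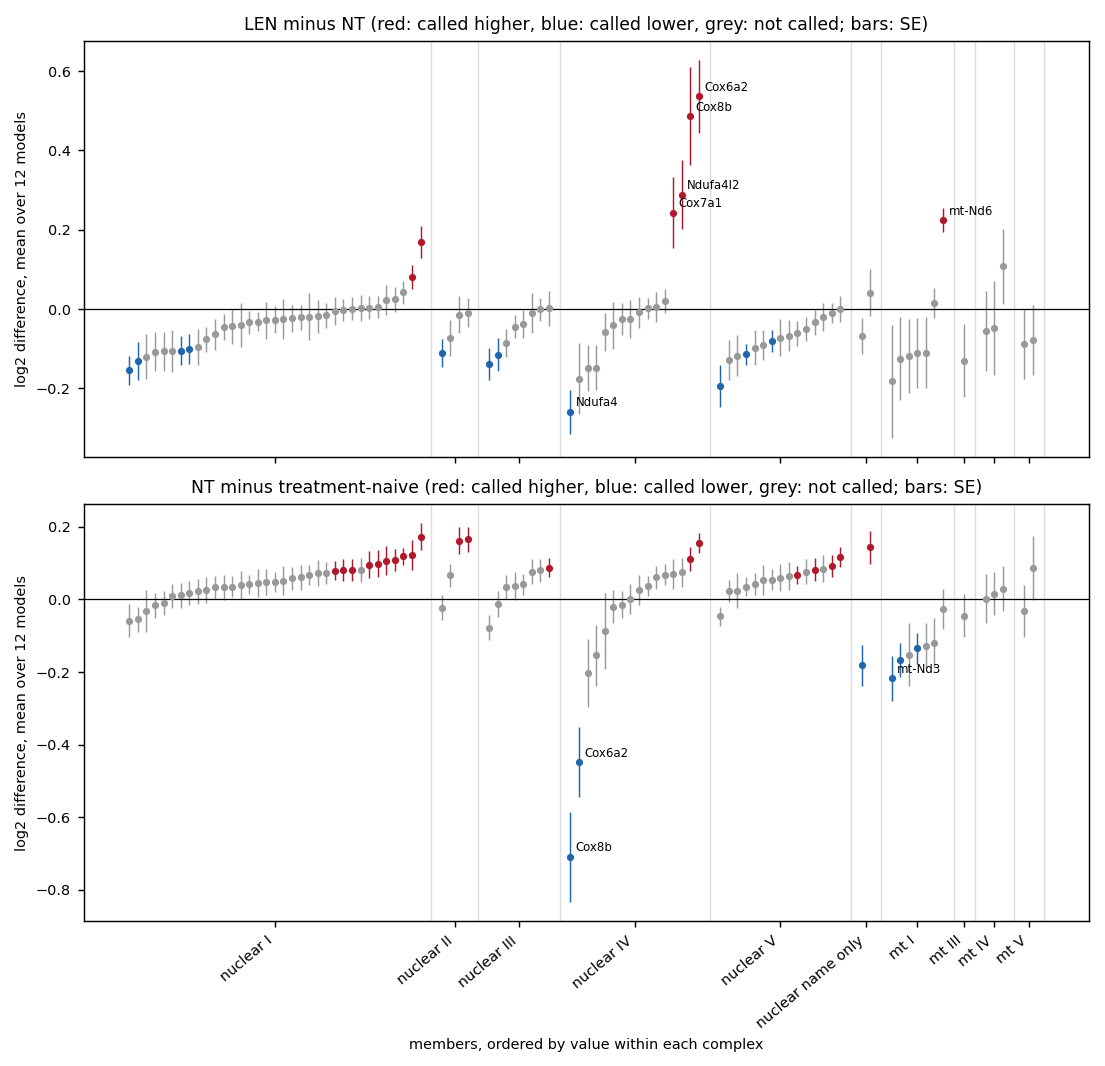
Log2 change of each of the 93 members, LEN minus NT (upper plot) and NT minus treatment-naïve (lower plot), as the mean over 12 models with its standard error, ordered by value within each complex; red and blue points have an adjusted p under 0.05 and gray points do not. Most nuclear members lie near 0 after LEN (median -0.03), with Ndufa4 lowest and Cox6a2 and Cox8b highest, and both contrasts share the NT tumors.

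The members that fell were led by Ndufa4 (-0.26, SE 0.05, adjusted p 0.000242), lower in 11 of 12 models. In Renca the 3 NT tumors had 153, 163 and 171 TPM and the 3 LEN tumors 98.6, 100 and 129 TPM. In Hepa 1-6 they had 173, 180 and 192 TPM against 108, 122 and 135 TPM, and in B16-F10 539, 568 and 611 TPM against 484, 494 and 507 TPM. With MBT2 these were the 4 models in which every LEN tumor lay below every NT tumor, where an average of 10.6% of genes per model did. Next came Atp5k (-0.19, SE 0.05, adjusted p 0.00499), which encodes the e subunit of complex V that links its dimers, lower in 9 models. Ndufs8, a subunit of complex I that carries iron-sulfur clusters, changed by -0.15 (SE 0.04, adjusted p 0.000932) and was lower in 11 models. Uqcr10 (-0.14), Ndufb8 (-0.13), the complex III core protein Uqcrc2 (-0.12), the catalytic alpha subunit Atp5a1 (-0.11), Sdhb (-0.11), Ndufa5 (-0.10), Ndufa9 (-0.10) and Atp5l (-0.08) completed the list, with adjusted p from 0.000709 to 0.0410. When each model was left out in turn, Ndufa4, Atp5k, Ndufs8, Uqcr10 and Atp5a1 were called in 12 of 12 fits. Sdhb lost its call without 4T1, and Atp5l in 2 fits (highest adjusted p 0.190, without B16-F10). Ndufa5, Ndufa9 and Uqcrc2 kept their calls in only 6 of 12 fits each and Ndufb8 in 5, so that these depended on more than 1 model.

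The 6 nuclear members that rose were Cox6a2 (0.54, SE 0.09, adjusted p 8.53e-06), Cox8b (0.49), Ndufa4l2 (0.29, SE 0.09, adjusted p 0.00967), Cox7a1 (0.24, SE 0.09, adjusted p 0.0412), Ndufv3 (0.17, SE 0.04, adjusted p 0.000870) and Ndufs3 (0.08, SE 0.03, adjusted p 0.0431). Cox8b reached the minimum of 1 TPM only through the LEN tumors of BNL 1ME A.7R.1, so its call is no test of a rise, and the count is 5 without it. Ndufv3, a small accessory subunit of complex I, was higher in 11 of 12 models and called in 12 of 12 fits without 1 model. It went from 237, 243 and 249 TPM in NT B16-F10 to 280, 320 and 330 TPM, and from 78.8, 95.8 and 96.3 TPM in NT Renca to 103, 108 and 127 TPM. Every LEN tumor lay above every NT tumor in 5 models, where an average of 12.7% of genes per model did. Ndufs3 kept its call in 4 of 12 such fits and Cox7a1 in 5. Cox7a1 also lost its call under both rescalings of the libraries (adjusted p 0.0620 and 0.0626).

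Cox6a2, Cox7a1 and Cox8b are the isoforms of complex IV subunits found in heart and skeletal muscle, and Cox7a1 and Cox8b also occur in brown fat. Their rise was largest in BNL 1ME A.7R.1. Cox6a2 had 0.63, 0.91 and 2.19 TPM in its NT tumors and 14.2, 19 and 19.9 TPM in its LEN tumors. Cox8b had 0, 1.92 and 2.6 TPM against 27.2, 29.1 and 39.7 TPM, and Cox7a1 1.38, 1.97 and 3.37 TPM against 9.85, 11.2 and 12.6 TPM. The groups did not overlap for any of the 3 genes, where an average of 12.7% of genes per model lay apart upward. In BNL 1ME A.7R.1 26.3% of all genes were called higher. Without this model Cox6a2 changed by 0.30 (adjusted p 0.02) and Cox7a1 by 0.09 (adjusted p 0.580), and Cox8b was below the minimum. With no minimum, Cox8b changed by 0.18 (SE 0.13, adjusted p 0.489) in the other 11 models and was below 0 in 5 of them. Skeletal muscle markers moved with these genes in BNL 1ME A.7R.1. Of 14 muscle markers 13 rose after LEN (median 0.88), and their summed TPM in BNL 1ME A.7R.1 was 122 in NT and 2739 in LEN, including Acta1, skeletal alpha-actin, at 16.9, 46.4 and 57.6 TPM against 632, 733 and 893 TPM. Over all tumors the muscle sum ranged from 3.80 to 218 TPM in NT and from 5.41 to 3287 TPM in LEN. Within groups, it had r = 0.498 with Cox6a2, 0.455 with Cox8b and 0.270 with Cox7a1, against 0.123 to 0.180 for the common isoforms Cox6a1, Cox7a2 and Cox8a. Of the 7 adipocyte markers 3 reached the minimum, and 3 of these rose. The levels did not follow the muscle sum in every model. In NT tumors, Cox6a2 made up 3.13% of its isoform pair in MC38 and 0.681% in BNL 1ME A.7R.1, at muscle sums of 75.9 and 122 TPM. The part of tissue around the tumor in the changes after LEN was not tested. The muscle isoforms never made up more than 7.67% (Cox6a2), 8.64% (Cox7a1) and 10.7% (Cox8b) of their isoform pair in the mean of any group.

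Ndufa4 and Ndufa4l2 moved in opposite directions on average. Ndufa4l2 had 43.1, 50 and 124 TPM in NT MBT2 and 157, 180 and 188 TPM after LEN. In Hepa 1-6 it had 19.1, 20.1 and 22.5 TPM in NT and 24.2, 26.3 and 35.3 TPM after LEN. It went the other way in Renca (3.62, 3.79 and 4.58 TPM to 2.18, 2.39 and 2.62 TPM) and in LL/2 (3.18, 3.72 and 3.95 TPM to 1.16, 1.90 and 2.29 TPM). The change differed between models (F test, adjusted p 0.00298) and the mean rise was 0.19 without MBT2 (adjusted p 0.11). Its share of the pair was 56.7% ± 1.72 in naïve MBT2, 42.1% ± 15.0 in NT and 70.4% ± 1.59 in LEN, with a median of 3.03% over the 36 groups of model and treatment. In Hepa 1-6 it was 10.8% in naïve, 10.2% in NT and 18.9% in LEN tumors. In CT26.WT it was 5.26%, 8.02% and 14.0%, so MBT2 was the only model in which Ndufa4l2 exceeded Ndufa4 in the mean of a group. Of 14 HIF target genes that act on mitochondria or glycolysis, 13 rose after LEN (median 0.38), with Egln3, an oxygen-sensing hydroxylase, up by 0.69 (SE 0.07, adjusted p 2.53e-11). Cox4i2, the hypoxia-type form of Cox4, changed by -0.24 (adjusted p 0.0300), and the common form Cox4i1 by -0.00 (adjusted p 0.979). Ndufa4l2 and Pdk1, a kinase that restrains pyruvate oxidation, had r = 0.417 within groups over all tumors.

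**Figure D4:**
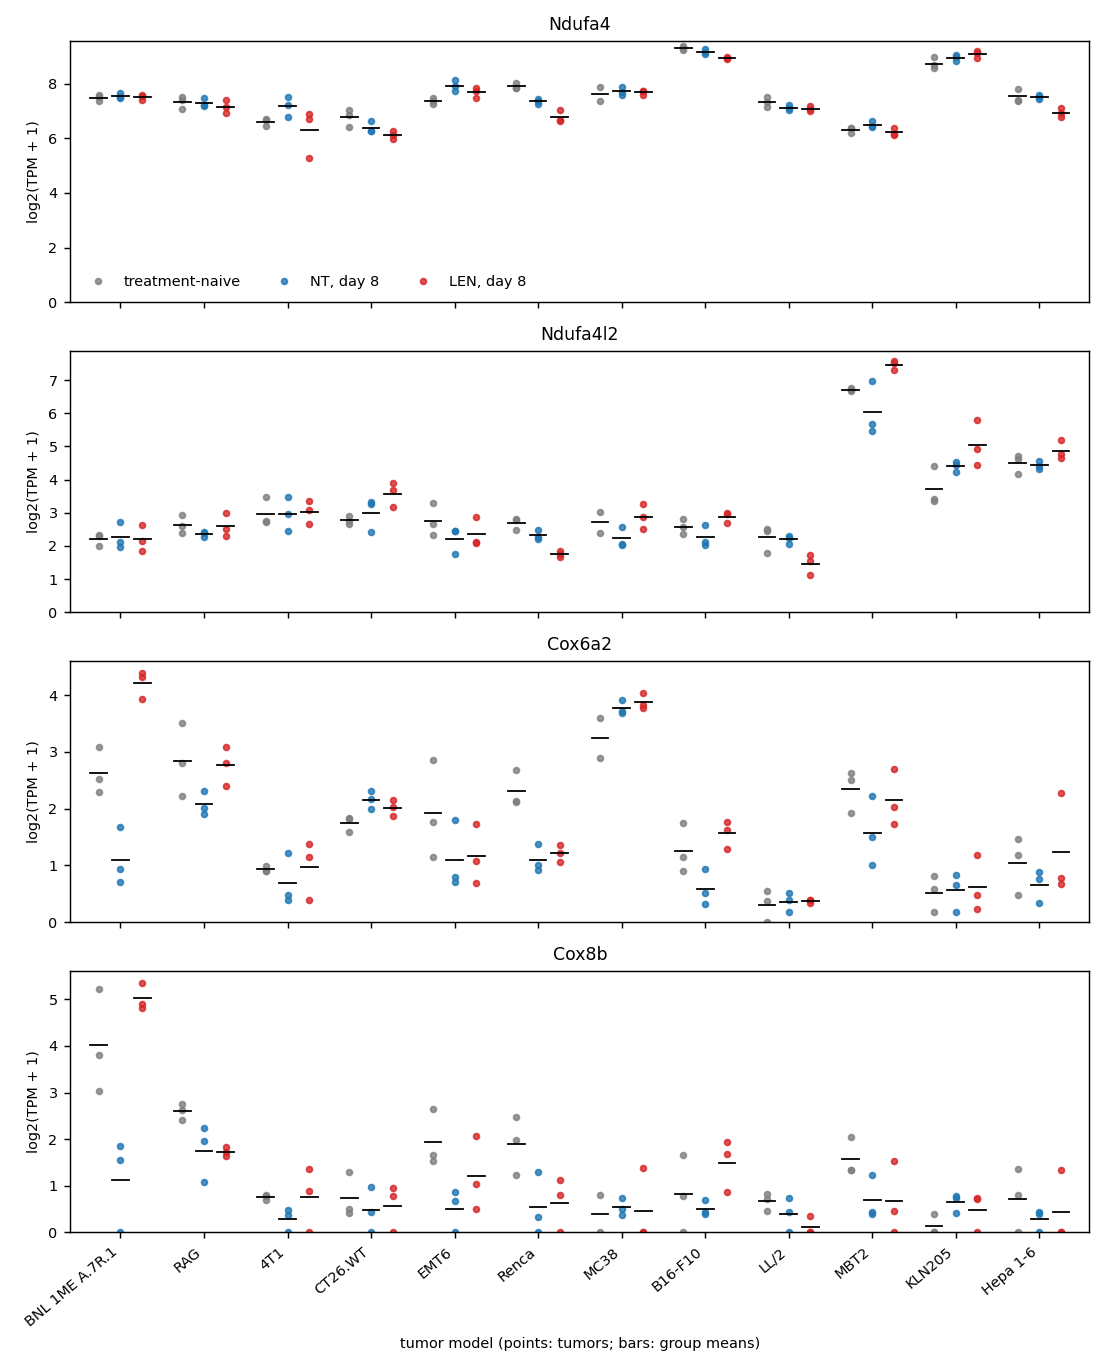
Level of Ndufa4, Ndufa4l2, Cox6a2 and Cox8b as log2(TPM + 1) in each tumor by model and group; points are tumors (gray, treatment-naïve; blue, NT; red, LEN) and bars are group means. Ndufa4l2 is highest in MBT2, where the LEN tumors had 157 to 188 TPM, and Cox6a2 and Cox8b rise most in BNL 1ME A.7R.1.

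The mitochondrial members changed with LEN in a few models and in opposite directions. Their summed TPM was higher in every LEN tumor than in every NT tumor of B16-F10 (log2 change 0.50), BNL 1ME A.7R.1 (0.34) and CT26.WT (0.24) and lower in Hepa 1-6 (-0.55). The 4T1 value was -0.89 with all tumors and -0.20 without LEN tumor 4. In the remaining 7 models it lay between -0.15 and 0.26. Of all genes, an average of 12.7% per model had every LEN tumor above every NT tumor, and 10.6% had the reverse. Muscle and adipocyte markers moved with the sum in 2 of these models. The summed muscle markers had 3.80 to 31.6 TPM in NT and 186 to 290 TPM in LEN tumors of B16-F10, and 53.0 to 162 TPM against 2293 to 3287 TPM in BNL 1ME A.7R.1. The adipocyte markers had 2.15 to 4.67 TPM against 15.6 to 47.1 TPM and 2.44 to 7.33 TPM against 58.2 to 149 TPM. In CT26.WT and Hepa 1-6 the groups overlapped for both lists. The part of these tissues in the mitochondrial sums was not tested. The nuclear sum changed by -0.30 to 0.13 in the same models, with groups apart in BNL 1ME A.7R.1 (0.13) and LL/2 (-0.06) only. Over the 12 models the SD of the change was 0.38 for the mitochondrial sum and 0.11 for the nuclear sum, around means of -0.02 and -0.04. Without LEN tumor 4 of 4T1 these SDs were 0.28 and 0.08, around means of 0.03 and -0.02. In B16-F10 the most changed was mt-Co1, the catalytic subunit of complex IV, with 5450, 5960 and 6415 TPM in NT and 10267, 10927 and 11627 TPM in LEN tumors. It had 5407 to 5642 TPM in the naïve tumors of that model.

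By the fits within single models, 6 mitochondrial members rose in B16-F10 (46.2% of 13), where 8.57% of all genes tested rose and 2.42% fell: mt-Co1 (0.88, adjusted p 0.00286), mt-Nd6 (0.68), mt-Atp6 (0.59, adjusted p 0.00378), mt-Atp8 (0.51), mt-Nd5 (0.49) and mt-Cytb (0.26). In BNL 1ME A.7R.1 7 rose (53.9%), where 26.3% of genes rose and 5.21% fell and the median of all genes was itself 0.17. They were mt-Nd6 (0.72, adjusted p 0.00307), mt-Nd1 (0.51), mt-Co2 (0.48), mt-Co1 (0.47), mt-Nd5 (0.46), mt-Nd2 (0.44) and mt-Nd4l (0.36). Nuclear members were also called. In BNL 1ME A.7R.1 22 rose (27.5%) and Atp5g2 fell. In B16-F10 Atp5e, Atp5k and Atp5l fell and Ndufv3 and Cox6a2 rose. There Cox6a2 had 0.530 ± 0.341 TPM in NT and 1.99 ± 0.488 TPM in LEN tumors. It reached the minimum in B16-F10 only through the LEN tumors, so its call is no test of a rise. In Renca 7 of 79 nuclear members tested fell (8.86%) against a background of 7.15% lower and 4.91% higher. The counts in BNL 1ME A.7R.1 turned with the scaling. Upper-quartile rescaling gave 6 nuclear rises, 7 nuclear falls and 1 mitochondrial rise there, with 13.2% of all genes higher and 11.7% lower, and rescaling over nuclear protein-coding genes gave 9, 3 and 5, with 17.6% and 8.67%. Before rescaling, the nuclear median of 0.15 lay below that of all genes. Leaving out NT tumor 4 of this model gave 16 rises among all members in place of 29. In B16-F10 the mitochondrial rises numbered 5 under either rescaling. After upper-quartile rescaling 9.27% of all genes were higher and 3.22% lower in B16-F10. The nuclear falls there numbered 4 (upper quartile) and 9 (protein-coding genes), and leaving out 1 tumor gave 0 to 2. The Renca falls numbered 11 under either rescaling, where 8.19% of all genes fell and 9.96% rose after upper-quartile rescaling. These falls numbered 0 without NT tumor 5 or LEN tumor 2, and 1 without NT tumor 2 or LEN tumor 5. There were 4 without LEN tumor 4 and 11 without NT tumor 3, so that they rest on single tumors. The largest nuclear rises in BNL 1ME A.7R.1 after the muscle isoforms were the complex III subunits Uqcrb (0.68, 50.2 ± 1.11 to 81.5 ± 9.35 TPM) and Uqcrq (0.59, 122 ± 7.61 to 184 ± 10.9 TPM). In Renca the falls were led by Ndufa4 (-0.58), apart from the low Cox6b2 (-0.90, 1.98 ± 0.513 to 0.607 ± 0.350 TPM), which reached the minimum there only through its NT tumors, and included Ndufs8 (-0.43), Atp5a1 (-0.37), Atp5g1 (-0.37) and Ndufa4l2 (-0.55). No member was called in the other 9 models, where few genes of any kind were. The share of genes lower and higher was 0.00651% and 0.0261% in RAG, 0.00637% and 0.00637% in 4T1, 0.00659% and 0% in CT26.WT, 0.0968% and 0.819% in EMT6, 0.0251% and 0.00628% in MC38, and 0.0774% and 0.0709% in LL/2. It was 0.013% and 0.0065% in MBT2, 0.15% and 0.0778% in KLN205, and 0.0242% and 0.0423% in Hepa 1-6. Groups of 3 tumors leave these fits little power, and a member not called is not shown to be unchanged.

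**Figure D5:**
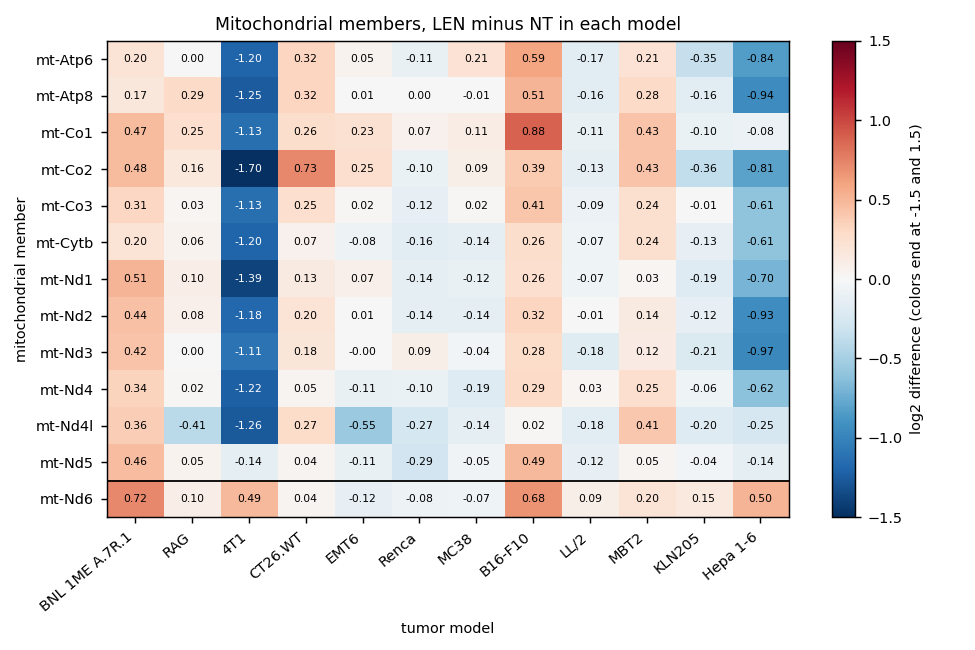
Log2 change (LEN minus NT, on log2(TPM + 1)) of each of the 13 mitochondrial members in each model. All 13 are above 0 in BNL 1ME A.7R.1, B16-F10, CT26.WT and MBT2, and in 4T1 and Hepa 1-6 mt-Nd6 is above 0 (0.49 and 0.50) while the other 12 are below 0, although without LEN tumor 4 of 4T1 the median of the other 12 in that model is -0.23 in place of -1.20 and 10 of them are below 0.

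The gene mt-Nd6 (ND6 subunit of complex I; chrM:13552-14070, minus strand) behaved unlike the other 12. It was the only mitochondrial member called in the mean over models, with a rise of 0.22 (SE 0.03, adjusted p 8.20e-08) in 9 of 12 models and in 12 of 12 fits without 1 model. In Hepa 1-6 it had 739, 746 and 845 TPM in NT and 1026, 1127 and 1152 TPM in LEN tumors, while the other 12 changed by a median of -0.66 (-0.97 to -0.08). In 4T1 it had 800, 850 and 869 TPM against 1099, 1141 and 1297 TPM, with the other 12 at a median of -1.20. Without LEN tumor 4 of 4T1 that median was -0.23, with 10 of the 12 below 0, and mt-Nd6 changed by 0.42. In BNL 1ME A.7R.1 592, 630 and 681 TPM became 914, 1040 and 1197 TPM, and in B16-F10 1005, 1029 and 1111 TPM became 1507, 1680 and 1860 TPM. In each of these 4 models every LEN tumor exceeded every NT tumor, where an average of 12.7% of genes per model did. In EMT6, by contrast, the NT tumors had 643 to 715 TPM and the LEN tumors 603 to 652 TPM. The effect differed between models (F test, adjusted p 2.46e-06). Over all tumors mt-Nd6 had r = 0.349 with the summed TPM of the other mitochondrial members and 0.157 within groups, whereas the remaining 12 had values of 0.807 to 0.970 within groups. Without LEN tumor 4 of 4T1 the values of mt-Nd6 were 0.507 and 0.369, and those of the remaining 12 within groups were 0.633 to 0.950. It shares 14 bases with mt-Nd5 on the opposite strand, and whether counting used the strand is not stated in the sources used here, so that reads of mt-Nd6 and of antisense RNA of the heavy strand cannot be told apart. Other overlaps on the same strand were of 43 bases (mt-Atp6 and mt-Atp8), 7 bases (mt-Nd4 and mt-Nd4l) and 1 base (mt-Co3 and mt-Atp6), and the split of reads among them is uncertain.

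The 4T1 values depend on LEN tumor 4. Its mitochondrial sum was 3427 TPM against 14934 and 13694 TPM in the other LEN tumors, and its nuclear sum 3923 TPM against 6676 and 6190 TPM. In this tumor mt-Co1 had 274 TPM against 2448 and 2369 TPM, but mt-Nd6 had 1297 TPM against 1141 and 1099 TPM, and mt-Nd5 462 TPM against 643 and 611 TPM. The other 12 summed to 0.162 of their level in the remaining LEN tumors, compared with a median of 0.658 over all genes, of which 85.8% were lower. Without this tumor the nuclear sum of 4T1 changed by -0.06 in place of -0.30. Over all models 13 nuclear members then fell, 6 rose and 2 mitochondrial members rose, in place of 11, 6 and 1. The share of all genes called in that fit is not given here. Without the 4T1 model mt-Co1 joined mt-Nd6 among the called (0.22, adjusted p 1.33e-05).

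The effect of LEN differed between models for 19 of the 93 members by an F test of 11 contrasts, 13 of 80 nuclear (16.3%) and 6 of 13 mitochondrial (46.2%), where 35.3% of all genes tested did. This count was 34 without LEN tumor 4 of 4T1, 24 nuclear (30%) and 10 mitochondrial (76.9%), where 44.3% of all genes did. It then took in mt-Co1 (adjusted p 0.00117), mt-Nd1, mt-Nd3 and mt-Nd4. With all tumors the mitochondrial members were mt-Nd6, mt-Nd5, mt-Atp8, mt-Atp6, mt-Co2 and mt-Nd2. The nuclear members were the isoforms Cox6a2, Cox8b, Cox7a1 and Ndufa4l2 together with Ndufb2, Ndufb3, Ndufb7, Ndufs7, Uqcr10, Uqcrb, Uqcrq, Atp5e and Atp5j. Cox8b reached the minimum only through the LEN tumors of the model in which it rose most. Its call is therefore no test of a difference between models. The nuclear counts given here, with and without LEN tumor 4 of 4T1, include it.

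The NT tumors of day 8 were compared with the treatment-naïve tumors, which were collected earlier, to ask how the members differ without any treatment. In the mean over models 20 of 80 nuclear members (25%) were higher and 3 (3.75%) lower at an adjusted p under 0.05 in a limma fit of these 71 tumors, against 17% and 11.5% of 17428 genes. This balance turned with the scaling, to 6 higher and 8 lower after upper-quartile rescaling and to 6 higher and 13 lower after rescaling over nuclear protein-coding genes, where 8.12% and 6.20% of all genes were higher and 20.1% and 23.9% lower. Of the 13 mitochondrial members 3 were lower and none was higher. At an unadjusted p under 0.05 there were 34 nuclear (42.5%) and 4 mitochondrial members (30.8%), against 38.7% of all genes tested. The rises were small and came from complex I (10 of 35), complex V (4 of 15), complex II (2 of 4), complex IV (2 of 16) and complex III (1 of 8), with Atp5s as the remaining one. They were largest for Ndufa6 (0.17, SE 0.04, adjusted p 0.000400), Sdhc (0.17, SE 0.03, adjusted p 0.000213), which anchors complex II in the membrane, its flavoprotein Sdha (0.16, SE 0.04, adjusted p 0.000833) and Cox7a2l (0.16, SE 0.03, adjusted p 2.31e-05), which takes part in supercomplexes. Atp5a1 (0.12), Atp5s (0.14) and Ndufa10 (0.12) were among those that followed, and the last pair lost their calls under both rescalings (adjusted p 0.0725 and 0.0964 for Atp5s, 0.0986 and 0.203 for Ndufa10). For Sdha, EMT6 went from 56.8, 57.5 and 58 TPM to 77.2, 81.7 and 89 TPM and BNL 1ME A.7R.1 from 55.3, 55.6 and 62.7 TPM to 66, 70 and 70.7 TPM. In Renca (48.9 to 67.3 TPM against 50.8 to 75.5 TPM) the groups overlapped. Every NT tumor exceeded every naïve tumor in 5 models, where 15.8% of genes per model did so on average and 13.7% went the other way.

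This change was uneven between models. The nuclear sum was higher in every NT tumor of EMT6 (log2 change 0.67), KLN205 (0.44) and 4T1 (0.30), and lower in Renca (-0.28), CT26.WT (-0.27), LL/2 (-0.14) and Hepa 1-6 (-0.12). The share of TPM in nuclear protein-coding genes moved with it, from 42.5% to 57.0% in EMT6, from 38.0% to 49.1% in KLN205 and from 36.4% to 42.2% in 4T1, or by 0.42, 0.37 and 0.21 on the log2 scale. Per TPM of these genes the nuclear sum changed by 0.25, 0.08 and 0.09, still with no overlap. On that scale LL/2 was lower (-0.13), as were BNL 1ME A.7R.1 (-0.16) and RAG (-0.16), while the groups overlapped in Renca (-0.13), CT26.WT (-0.06) and Hepa 1-6 (0.06). The mitochondrial sum was higher in MC38 (0.82) and lower in CT26.WT (-0.34), MBT2 (-0.26), LL/2 (-0.21), Hepa 1-6 (-0.18) and B16-F10 (-0.13), again with no overlap. Naïve MC38 had 2 tumors, at 10276.5 and 23527.6 TPM against an NT mean of 27603 TPM, so the size of the MC38 changes rests on that pair. Of all genes, an average of 15.8% per model had every NT tumor above every naïve tumor, and 13.7% had the reverse. The ratio of the sums was therefore lower at day 8 in EMT6 (-0.85), 4T1 (-0.85) and KLN205 (-0.60) and higher in MC38 (0.81), RAG (0.46) and Renca (0.39). Without EMT6 or without KLN205 6 nuclear members were higher, and without CT26.WT 36. Of the 26 members called, 12 kept their call under both rescalings of the libraries, and Atp5h changed sign when rescaled over nuclear protein-coding genes.

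The members that were lower at day 8 were Cox8b (-0.71), Cox6a2 (-0.45, SE 0.10, adjusted p 0.000374) and Atp5sl (-0.18, SE 0.06, adjusted p 0.0123). Cox8b had a mean of 0.707 TPM over all NT tumors and reached the minimum only through the naïve tumors (3.10 TPM), so its call is no test of a fall. Of the mitochondrial genome mt-Nd3 (-0.22, SE 0.06, adjusted p 0.00717), mt-Nd5 (-0.17, adjusted p 0.00544) and mt-Nd6 (-0.13, adjusted p 0.0140) were lower. With each model left out in turn, mt-Nd5 was called in 12 of 12 fits, mt-Nd3 in 11 and mt-Nd6 in 9, its adjusted p being 0.196 without EMT6. Cox6a2 and Atp5sl were called in all 12, as were Ndufa6, Sdha, Sdhc and Cox7a2l among the rises. All 14 muscle markers fell as well (median -1.07), and 5 of the 5 adipocyte markers tested, where 11.5% of all genes fell. Only 3 of the 7 adipocyte markers reached the minimum among the day 8 tumors. The others tested here reached it with the naïve tumors, where the list had a median sum of 22.45 TPM against 5.15 TPM in NT. Their fall is no test. The summed muscle markers ranged from 6.88 to 889 TPM in the naïve tumors. Cox6a2 moved in the direction of the muscle markers in both comparisons, which share the NT tumors, whereas Cox7a1 had a change of -0.09 (adjusted p 0.579) between naïve and NT tumors. Cox8b is left out here, as it reached the minimum in each comparison only through tumors in which it was high.

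Other genes of the organelle were followed as lists, to be read against the 9.87% of all genes that fell and the 13.7% that rose after LEN. Of 10 electron transport genes that the names do not take, 4 fell after LEN and none rose (median -0.08). Of 45 assembly factors of the respiratory chain, 2 fell, with Ndufaf2 at -0.23 (adjusted p 0.0119), and 2 rose, with the copper chaperone Cox17 at 0.18 (adjusted p 0.00151). Among 26 genes that maintain or transcribe mitochondrial DNA only the protease Lonp1 was called (0.19, adjusted p 1.67e-05). Mitochondrial ribosomal proteins showed 15 of 78 lower and none higher (median -0.06, with Mrpl42 at -0.17), and cytosolic ribosomal proteins 7 of 84 lower and 1 higher. In the tricarboxylic acid cycle 2 of 19 were lower, with fumarate hydratase Fh1 at -0.19 (adjusted p 0.00777). Of 10 regulators of biogenesis 2 rose, among them Esrra, the estrogen-related receptor alpha, at 0.15 (adjusted p 0.0117), and Ppargc1a changed by -0.06 (adjusted p 0.406). Markers of endothelial cells, which carry VEGF receptors, were lower for 8 of 8 (median -0.79). Of 10 leukocyte markers 2 fell and 4 rose, and of 7 fibroblast markers 1 fell and 1 rose. Between naïve and NT tumors, 67 of the cytosolic ribosomal proteins were higher and 1 lower (median 0.13), together with 7 of 19 genes of the tricarboxylic acid cycle and 10 of 14 HIF targets. The 10 of 78 mitochondrial ribosomal proteins that were higher are a smaller share than the 17% of all genes. The nuclear subunits had a median of 0.05 and all genes one of 0.01.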

How the data were processed

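RNA was sequenced from 107 mouse tumors in 36 groups of model and treatment, 35 of them treatment-naïve, 36 NT and 36 LEN. The authors depleted ribosomal RNA, trimmed reads with Trimmomatic 0.36, mapped them with STAR 2.5.2b to the mouse genome (mm10, Ensembl annotation) and quantified genes with RSEM 1.2.31. The values deposited by the authors are TPM, which keeps no depth, so counting precision is unknown. The instrument of each library is not given in the sources used here.

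Values were analyzed as log2(TPM + 1), which understates changes of low genes, over genes with a mean of at least 1 TPM in the fitted tumors, by limma 3.58.1 in R 4.3.3 (mean-variance trend, Benjamini-Hochberg adjustment over all genes, threshold 0.05). Sums of TPM carry no test. Groups come from the labels, and since the samples are separate tumors, p-values measure the spread between them. No 2 tumors shared more than 4.99% of their values. Members, lists and tests were chosen with earlier results of these data known. Named individually are the mitochondrial members, isoform pairs, Sdh genes, the 8 largest called rises and falls, the extremes in level per complex, the 6 widest ranges and the extremes of each list; other names were added after their values were seen, and 1 member enters the counts and sums but is not reported individually here. Other settings tried were a pseudocount of 0.1, a minimum of 5 TPM or none, rescaling by the upper quartile or over nuclear protein-coding genes, no trend, a replicate block, 1 fit of 72 tumors for single models, and leaving out each tumor or model. Spread and correlations without LEN tumor 4 of 4T1, and the muscle isoforms without BNL 1ME A.7R.1 and with no minimum, were added after seeing the data. The fit was tested on simulated data. Plots used Python 3.11.15 and matplotlib 3.10.9.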

Additional observations from a re-analysis of the deposited data

Results flagged for a closer look

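The effect of LEN differed between the 12 models for 19 members by limma's F test of 11 contrasts with Benjamini-Hochberg adjustment. The lowest adjusted p-values belonged to mt-Nd6 (2.46e-06), which rose by 0.72 in BNL 1ME A.7R.1 and changed by -0.12 in EMT6, and to the muscle isoforms Cox6a2 (3.75e-06), Cox8b (1.06e-05) and Cox7a1 (5.99e-05), which rose by 3.11, 3.89 and 1.96 in BNL 1ME A.7R.1. Cox8b reached the minimum only through the LEN tumors of that model, so its p-value is no test of a difference between models, although the 19 include it. Ndufa4l2 followed (0.00298), with a change of 1.42 in MBT2 and -0.75 in LL/2.

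Of the other mitochondrial members, mt-Nd5 (0.0106), mt-Atp8 (0.0188), mt-Atp6 (0.0267), mt-Co2 (0.0303) and mt-Nd2 (0.0464) had log2 changes above 0 in B16-F10 and below 0 in Hepa 1-6. In 4T1 they changed by -0.14, -1.25, -1.20, -1.70 and -1.18 in this order. Without LEN tumor 4 of 4T1 these changes were 0.0038, -0.42, -0.43, -0.48 and -0.32, so that the sign of mt-Nd5 rests on that tumor, and the adjusted p-values of the F test for the 5 genes were 0.00262 to 0.0124. Of the other nuclear members, adjusted p was 0.00442 for Uqcrq, 0.00476 for Atp5j, 0.00843 for Ndufb3, 0.0150 for Uqcrb, 0.0183 for Ndufb7, 0.0266 for Ndufs7, 0.0318 for Ndufb2, 0.0354 for Uqcr10 and 0.0475 for Atp5e. The first 6 of these were among the members called higher in BNL 1ME A.7R.1, and Atp5e among those called lower in B16-F10.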

How the results depend on the processing

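With upper-quartile rescaling, 33 nuclear members were lower after LEN in place of 11 (18.3% of all genes in place of 9.87%), the effect differed between models for 56 (45.8% of all genes in place of 35.3%), and within single models 22 calls were lower and 16 higher in place of 11 and 37. Against treatment-naïve tumors, 8 nuclear members were then lower, 6 higher and 5 mitochondrial members lower. Rescaling over nuclear protein-coding genes gave 30, 51, 23 and 22, and 13, 6 and 6, with 15.8% of all genes lower after LEN and 46.2% differing between models. Among all called genes, the share that was higher went from 58.1% to 41.9% and 48.6% after LEN, and from 59.7% to 28.8% and 20.6% between naïve and NT tumors. Of the 18 members called after LEN, 17 kept their call under both, and Cox7a1 lost it (adjusted p 0.0620 and 0.0626). The cause was not tested.

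With no minimum on TPM, 7 nuclear members were lower after LEN and 5 calls within models were lower. A minimum of 5 TPM left 3 nuclear rises after LEN and 1 nuclear fall against naïve tumors, as fewer genes were tested. Without the mean-variance trend 6 calls within models were lower. One fit of all 72 tumors gave 58 lower and 23 higher calls within models, so that falls outnumbered rises. The share of all genes called in that fit is not given here.

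Leaving out 1 tumor or model gave 6 to 23 nuclear members lower and 3 to 6 higher after LEN, 0 mitochondrial members lower and 1 to 2 higher, and 13 to 60 that differed between models. Against naïve tumors it gave 3 to 6 nuclear members lower and 6 to 36 higher, and 2 to 6 mitochondrial members lower and 0 higher. Between naïve models it gave 92 to 93, and within models 4 to 15 lower and 24 to 38 higher calls. The mean change of the nuclear sum was -0.05 to -0.02 after LEN and 0.04 to 0.07 against naïve, and that of the mitochondrial sum -0.05 to 0.03 and -0.10 to 0.00. The nuclear falls after LEN numbered 7 without RAG NT tumor 1, 17 without 4T1 NT tumor 1, 23 without 4T1 LEN tumor 2 (60 then differing between models), 18 without 4T1 LEN tumor 5 (43), 6 without Renca and 7 without KLN205. Nuclear rises numbered 3 without BNL 1ME A.7R.1. Against naïve tumors nuclear rises numbered 13 without MC38 naïve tumor 3 (5 mitochondrial falls), 8 without 4T1, 33 without Renca, and nuclear falls 6 without EMT6 and 5 without KLN205. Mitochondrial falls numbered 5 without RAG and 6 without MC38. Within models 24 calls were higher without BNL 1ME A.7R.1 NT tumor 4, and 4 or 5 were lower without Renca NT tumors 2 or 5 or LEN tumors 2 or 5.

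Tumors of the same number came from different mice. With the number as a replicate block, 14 nuclear members were lower and 6 higher after LEN, with 0 and 1 mitochondrial, 23 differed between models, and against naïve tumors 3 nuclear members were lower, 19 higher and 3 mitochondrial lower. Deviations of same-numbered tumors correlated by -0.08 to 0.08 (NT and LEN) and -0.14 to 0.10 (naïve and NT), so the numbers share only a name.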
